A study of Homo sapiens with 29 samples.

Results

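C4-2 cells treated with the DNA-PK inhibitor NU7441 together with the antiandrogen enzalutamide (NU7441+Enza) were compared with C4-2 cells labelled Ctrl. The comparison was defined by the sample labels and holds 3 libraries on each side, 6 of the 29 libraries of the study and 6 of its 24 C4-2 libraries. C4-2 is a human prostate cancer line derived from LNCaP that grows without testicular androgen, and the cells were kept in medium with hormone. NU7441 and enzalutamide were each given at 1 µM for 24 h. Cells with NU7441 alone (NU7441) and with enzalutamide alone (Enza), 3 libraries each at the same dose and time, are used where the combination is set against 1 compound. The labels state no vehicle for Ctrl, and they do not say whether the 3 libraries of a group came from separate cultures, so the p-values measure the spread between these libraries, which may be technical. All cells are of 1 line, which limits them as a model of prostate cancer.

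The androgen receptor is a steroid-activated transcription factor. Bound to androgen it moves to the nucleus and drives the genes of the secretory prostate cell, among them the kallikrein proteases and their neighbours in secretion and lipid supply. Enzalutamide competes with androgen for the receptor and lowers its binding to DNA. DNA-PK is a kinase whose catalytic subunit, encoded by PRKDC, is held at broken DNA ends by the Ku proteins and directs non-homologous end joining, and it is also known as a partner of the androgen receptor in transcription. NU7441 blocks the kinase activity, which transcript levels do not measure. The comparison addresses how blocking both proteins together altered the transcriptome of these cells.

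Total counts were 36.23, 34.15 and 36.57 M in Ctrl and 42.38, 37.23 and 35.49 M in NU7441+Enza. Levels are given as CPM, counts scaled to a common library size by TMM, a factor that corrects for the makeup of each library, and differences as log2 fold changes with their standard error (SE). Small RNA took 4.69% to 4.79% of counts in Ctrl and 5.57% to 5.88% in NU7441+Enza, with no overlap, and mitochondrial RNA took 0.92% to 2.34% and 1.37% to 1.98%. With both classes removed 3424 genes were called in place of 3341. The 3 NU7441+Enza libraries lay close together, at a chi-square per degree of freedom of 5.05 to 7.69 between pairs against 14 to 40.1 in Ctrl. The first Enza library and the first library of CC-115 (an inhibitor of DNA-PK and TOR kinase) with Enza stood apart from their groups, at 111 to 161 and 97 to 99.3. Both entered the fit that set the spread, so counts are also given without these 2 libraries.

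Of 22860 genes tested, 3341 (14.6%) passed an adjusted p of 0.05 in edgeR's quasi-likelihood test. Of these 1864 rose (8.15% of genes tested) and 1477 fell (6.46%). Among genes with an average log2 CPM of at least 1, falls reached further than rises: CCDC141 lay at −6.48 and the androgen-induced genes CHRNA2 and SLC45A3 at −4.46 and −3.26, while PLD1 rose most at 2.65. The 2 groups did not overlap in 3329 of the 3341 genes called (99.6%), and in 10260 of all genes tested (44.9%). The majority of rises held under some other settings and not under others. Rises made up 55.8% of calls here, 47.5% with median-of-ratios size factors (1557 rises, 1721 falls), 44.1% in DESeq2 (1486 and 1883), 49.3% with a stricter filter on low counts, and 42.8% to 48% with each of the 6 libraries left out in turn under the same scaling. The share of rises was 56.2% with replicate number fitted as a block, 55.3% with small and mitochondrial RNA removed and 50.8% without a filter on low counts. Leaving out the first Ctrl library left 2155 calls, 987 rises and 1168 falls. Without the 2 Enza libraries that stood apart 7783 genes were called, 3885 rises (16.8% of genes tested) and 3898 falls (16.9%), and these held all 3341 genes in the same direction. Counts of list members are read against 8.15% and 6.46%, and those without the 2 Enza libraries against 16.8% and 16.9%.

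**Figure D1:**
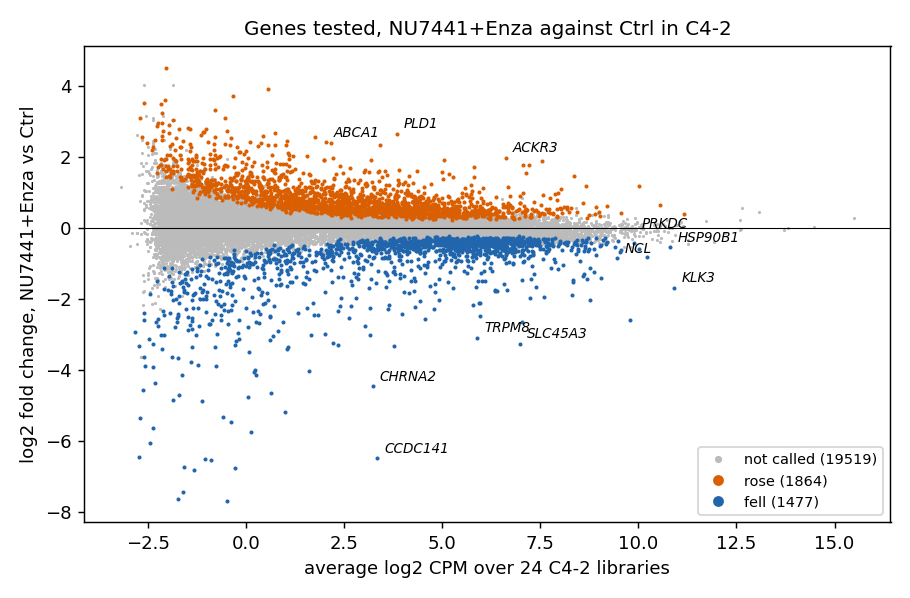
Each point is 1 of 22860 genes, with its average log2 CPM over the 24 C4-2 libraries on the x axis and its log2 fold change in NU7441+Enza against Ctrl on the y axis; 1864 called rises are orange and 1477 called falls blue. KLK3 (−1.68) lay well below 0, while PRKDC (−0.16) lay close to it.

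The transcript of the DNA-PK catalytic subunit differed little from Ctrl. PRKDC stood at 1099, 1095 and 1119 CPM in Ctrl and at 932, 986 and 1051 CPM in NU7441+Enza, and the difference of −0.16 ± 0.10 (SE, n = 3 and 3) had an edgeR adjusted p of 0.347. All 3 PRKDC values of the combination lay below those of Ctrl, a lack of overlap seen in 44.9% of all genes tested. MTOR, a kinase of the same family as DNA-PK, fell from 193, 200 and 197 CPM to 145, 151 and 148 CPM (−0.41 ± 0.10, edgeR adjusted p = 0.00401), with no overlap.

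Androgen-induced genes fell almost as a block. Of 43 measured genes on the list 34 fell and 2 rose, against 6.46% and 8.15% of all genes tested, and their median log2 fold change was −1.30 against 0.03 over all genes. The count was 34 falls with each of the 6 libraries left out in turn, and without the 2 Enza libraries that stood apart 36 fell and 2 rose.

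KLK3 (ENSG00000142515, hg19 chromosome 19, 51358171 to 51364020), which encodes prostate-specific antigen, stood at 2009, 1928 and 1847 CPM in Ctrl and at 583, 627 and 596 CPM in NU7441+Enza. It fell 3.2-fold (−1.68 ± 0.12, edgeR adjusted p = 4.52e-11), and the lowest Ctrl value lay far above the highest of the combination. Its neighbour KLK2, a kallikrein that can activate the KLK3 protein, stood at 669, 658 and 646 CPM in Ctrl and at 104, 113 and 111 CPM in NU7441+Enza. The fall of KLK2 was −2.59 ± 0.13 (edgeR adjusted p = 1.04e-13), also without overlap. KLK2 and KLK3 are close paralogs, and how reads that align to both were counted is not given in the sources used here.

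Because the falls of these neighbouring genes are among the plainest readouts of androgen receptor output, their promoters are shown (RefSeq, GRCh38.p14, plus strand, 250 bases before to 50 after the annotated start, KLK3 at chr19:50854665-50854964 and KLK2 at chr19:50873189-50873488). Capitals mark AGAACA, a 6-letter part of the androgen receptor binding element, searched on both strands. It does not overlap the other motif searched.
KLK3: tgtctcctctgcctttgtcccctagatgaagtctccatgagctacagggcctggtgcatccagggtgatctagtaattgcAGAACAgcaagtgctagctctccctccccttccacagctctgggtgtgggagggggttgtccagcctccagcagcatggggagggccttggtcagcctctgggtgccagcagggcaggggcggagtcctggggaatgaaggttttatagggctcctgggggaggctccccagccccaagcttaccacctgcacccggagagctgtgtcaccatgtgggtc
KLK2: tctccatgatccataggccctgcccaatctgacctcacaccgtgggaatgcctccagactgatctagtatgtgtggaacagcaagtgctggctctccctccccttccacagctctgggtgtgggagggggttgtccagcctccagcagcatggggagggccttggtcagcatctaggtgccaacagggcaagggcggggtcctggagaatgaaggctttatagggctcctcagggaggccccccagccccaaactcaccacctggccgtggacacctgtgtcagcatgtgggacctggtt
The KLK3 window held 1 match, on the strand of the gene and beginning 170 bases before the start, and the KLK2 window held no exact match. Before the shared letters gcaagtgct the KLK2 window reads ggaaca, which an exact search does not count. The full element was not searched, so the KLK2 window cannot be said to lack it. At least 1 match was held by 1255 (9.79%) of the 12816 tested genes with a promoter in RefSeq, by 10.5% of genes that fell, by 8.64% of genes that rose and by 6 of 30 androgen-induced genes. A match of 6 letters is a description of the window and not evidence of binding.

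Other secretory and membrane genes of the androgen programme fell further than KLK3. SLC45A3, which encodes the prostate transporter prostein, stood at 159, 151 and 150.0 CPM in Ctrl and at 15.2, 16.4 and 16.5 CPM in NU7441+Enza (−3.26 ± 0.12, edgeR adjusted p = 2.36e-16). TRPM8, a cold-activated cation channel, stood at 81.1, 80.6 and 85.4 CPM and at 9.72, 9.73 and 9.63 CPM (−3.09 ± 0.11, edgeR adjusted p = 2.36e-16). In both genes the 3 libraries of the combination were nearly level and far below Ctrl.

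The transcription factor MAF fell from 16, 14.3 and 15.3 CPM to 1.68, 1.18 and 1.76 CPM (−3.31 ± 0.14), and HPGD, which inactivates prostaglandins, from 3.58, 3.22 and 2.79 CPM to 0.146, 0.508 and 0.255 CPM (−3.40 ± 0.23). CHRNA2, a nicotinic acetylcholine receptor subunit, fell from 15.1, 16.3 and 15.9 CPM to 0.56, 0.695 and 0.906 CPM (−4.46 ± 0.22). ADAM7, a metalloprotease-family gene, held 255 reads over the 3 Ctrl libraries and 5 over those of the combination, a ratio per read sequenced of 57.4 (95% interval 24.3 to 178, counting error only). Neither CHRNA2 nor MAF came near its Ctrl range in any library of the combination.

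Against the direction of the list, MERTK, a receptor kinase of the TAM family, rose by 0.52 ± 0.09 (edgeR adjusted p = 0.000253) and PLA2G2A, a secreted phospholipase, by 2.29 ± 0.59 (edgeR adjusted p = 0.00835), both named after their values were seen. PLA2G2A stood at 0.0597, 0.0315 and 0.0557 CPM in Ctrl and at 0.268, 0.321 and 0.17 CPM in the combination, and its call ended without the second Ctrl library, which left 1 rise on the list. Of the 7 members that did not pass, STEAP2, a metalloreductase of the prostate, lay at 0.01 ± 0.14 (edgeR adjusted p = 0.974), also named after its value was seen.

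**Figure D2:**
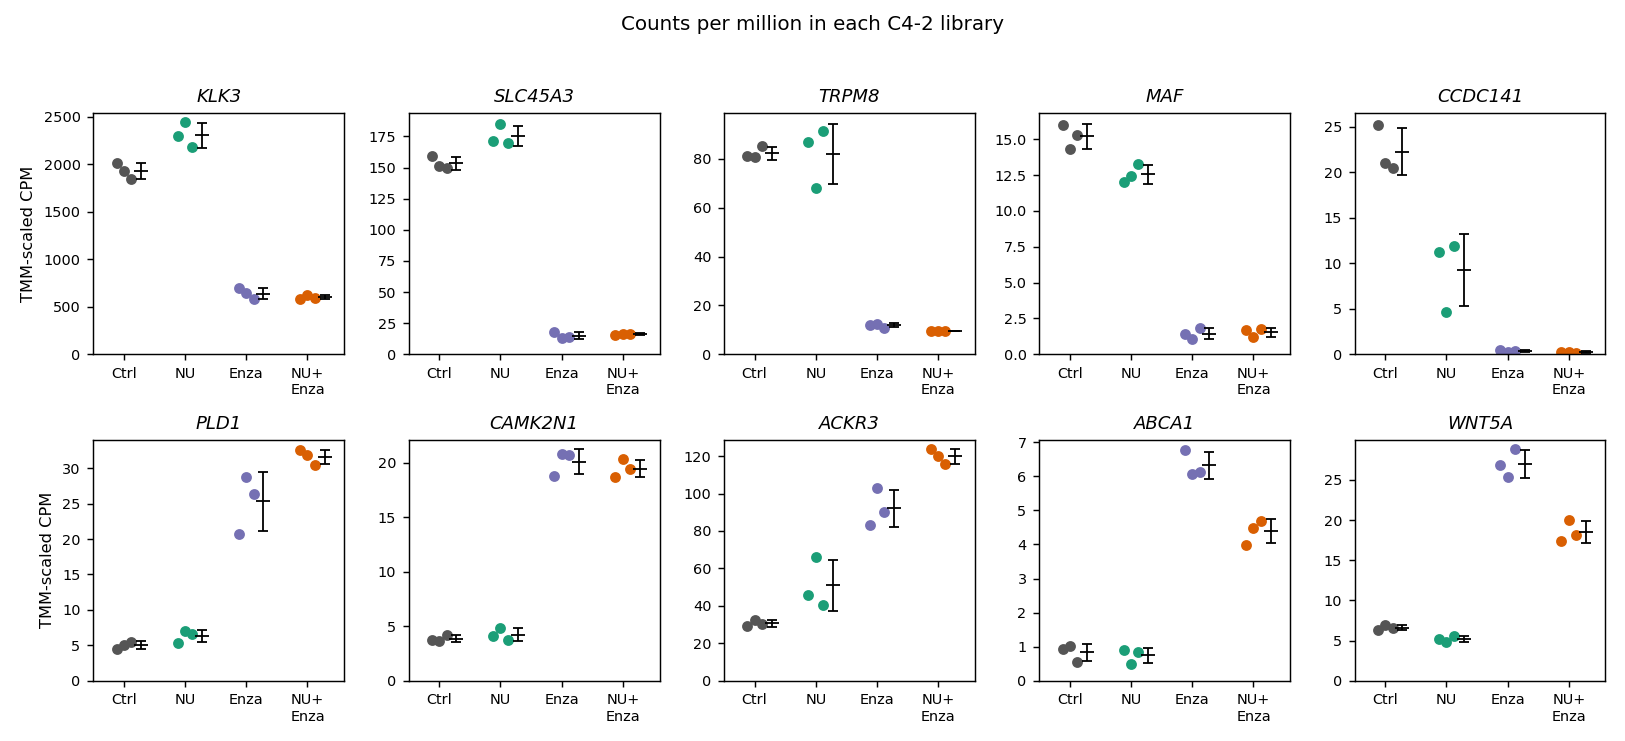
TMM-scaled CPM of 10 genes in each library (points) of Ctrl, NU7441, Enza and NU7441+Enza, with mean and SD of 3 libraries (bars). The 5 genes of the upper row were low in Enza and NU7441+Enza, and the 5 of the lower row were high in both, with ABCA1 and WNT5A at a lower level in NU7441+Enza than in Enza.

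Genes known to be repressed by androgen moved mostly upward. Of 10 measured members 6 rose and 2 fell, against 8.15% and 6.46% of genes tested, with a median of 0.76, and 7 rose and 3 fell without the 2 Enza libraries that stood apart. CAMK2N1, an inhibitor of the calcium-dependent kinase CaMKII, stood at 3.73, 3.66 and 4.23 CPM in Ctrl and at 18.7, 20.3 and 19.4 CPM in NU7441+Enza, a 5.01-fold rise (2.33 ± 0.12, edgeR adjusted p = 1.04e-13). BCHE, which encodes butyrylcholinesterase, rose from 20, 18.8 and 17.9 CPM to 36.4, 38.1 and 36.2 CPM (0.97 ± 0.10). OPRK1, the kappa opioid receptor, rose on few reads, 34 over the 3 libraries of the combination against 8 in Ctrl.

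The glucuronidating enzymes of the UGT2B family, which inactivate androgens, split. UGT2B28 fell from 2.77, 2.74 and 2.28 CPM to 0.463, 0.347 and 0.425 CPM (−2.64 ± 0.29) and UGT2B11 from 3.67, 3.69 and 3.15 CPM to 2.12, 1.47 and 2.12 CPM (−0.88 ± 0.17). UGT2B15, named after its value was seen, rose from 15.2, 13.5 and 12.3 CPM to 25.9, 25.8 and 25.2 CPM (0.91 ± 0.17). These genes are near-identical in sequence, so their separate counts are uncertain.

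Among 20 measured partners and relatives of the androgen receptor 4 rose and 3 fell (median 0.03), beside 8.15% and 6.46% of all genes tested. Without the 2 Enza libraries that stood apart 6 rose and 6 fell, beside 16.8% and 16.9%. PGR, the progesterone receptor, rose from 0.298, 0.378 and 0.418 CPM to 2.17, 2.22 and 2.21 CPM (2.58 ± 0.25, edgeR adjusted p = 1.93e-08). The mineralocorticoid receptor NR3C2 fell from 33.7, 31.9 and 33.2 CPM to 20.6, 20.6 and 21.4 CPM (−0.66 ± 0.08), and the coactivator NCOA1 fell by 0.52 ± 0.10. The pioneer-type factor GATA2 rose from 163, 180.0 and 179 CPM to 260.0, 245 and 256 CPM (0.54 ± 0.10). None of these 4 receptor and cofactor genes had overlapping groups, as held for 99.6% of all genes called.

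Of 15 measured genes of steroid metabolism 1 rose and 2 fell, beside 8.15% and 6.46% of all genes tested. Without the 2 Enza libraries 3 rose and 7 fell, beside 16.8% and 16.9%. CYP11A1, which makes the first cut of cholesterol in steroid synthesis, fell from 6.65, 5.99 and 5.21 CPM to 0.95, 1.34 and 1.44 CPM (−2.26 ± 0.18, edgeR adjusted p = 7.68e-10). STS, the steroid sulfatase, fell from 17.6, 18.1 and 19.1 CPM to 14.9, 13.5 and 12.7 CPM (−0.41 ± 0.11). The xenobiotic enzyme CYP1A1 was the single rise (0.63 ± 0.16), with an adjusted p of 0.0705 without the filter on low counts, 0.076 without the second Ctrl library and 0.0909 without the second library of the combination.

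Outside the lists the largest fall among the ranked genes was that of CCDC141 (hg19 chromosome 2, 179694484 to 179914813), a coiled-coil protein gene. It stood at 25.2, 21.0 and 20.5 CPM in Ctrl and at 0.292, 0.294 and 0.142 CPM in NU7441+Enza, with 2247 and 28 reads over 3 libraries each, a ratio of 90.3 per read sequenced (95% interval 62.3 to 136, counting error only). DOCK8, an exchange factor for small GTPases, lay at −4.02 ± 0.27, WWTR1, the Hippo pathway coactivator TAZ, at −3.36 ± 0.25 and the desmosomal cadherin DSC1 at −3.24 ± 0.21. PGC, which encodes pepsinogen C, lay at −3.02 ± 0.15, AKAP12, a scaffold of protein kinase A, at −2.98 ± 0.22 and the GTPase RHOU at −2.66 ± 0.15. RHOU went from 264, 226 and 203 CPM to 37.6, 34.5 and 37.8 CPM, and its lowest Ctrl library lay far above the combination. A lack of overlap between the groups was a condition of ranking these genes.

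PLD1 (hg19 chromosome 3, 171318195 to 171528740), a phospholipase that makes phosphatidic acid, rose most among the ranked genes. It went from 4.5, 5.11 and 5.51 CPM to 32.5, 31.8 and 30.5 CPM (6.26-fold, 2.65 ± 0.14, edgeR adjusted p = 2.11e-13). ACKR3, a scavenging receptor for the chemokine CXCL12, rose from 29, 32.6 and 30.3 CPM to 124, 120.0 and 116 CPM (1.97 ± 0.14, edgeR adjusted p = 5.95e-11). Both sets of libraries were tight and far apart in these genes, and groups that did not overlap were a condition of ranking them. ABCA1, the cholesterol efflux transporter, rose from 0.925, 1.01 and 0.557 CPM to 3.99, 4.49 and 4.7 CPM (2.41 ± 0.19). The other rises among the 12 largest of the ranked genes were those of AMIGO2 (2.55 ± 0.19), a neuronal adhesion protein, LRRC31 (2.45 ± 0.22), MATN2 (2.33 ± 0.23), a matrix protein, CAMK2N1, RIMS4 (2.12 ± 0.18), of the synaptic active zone, and CNTN5 (2.06 ± 0.29), a contactin. They also held the transcription factors FOXN4 (2.01 ± 0.22) and EBF2 (2.01 ± 0.23) and GC (1.96 ± 0.18), the vitamin D carrier.

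**Figure D3:**
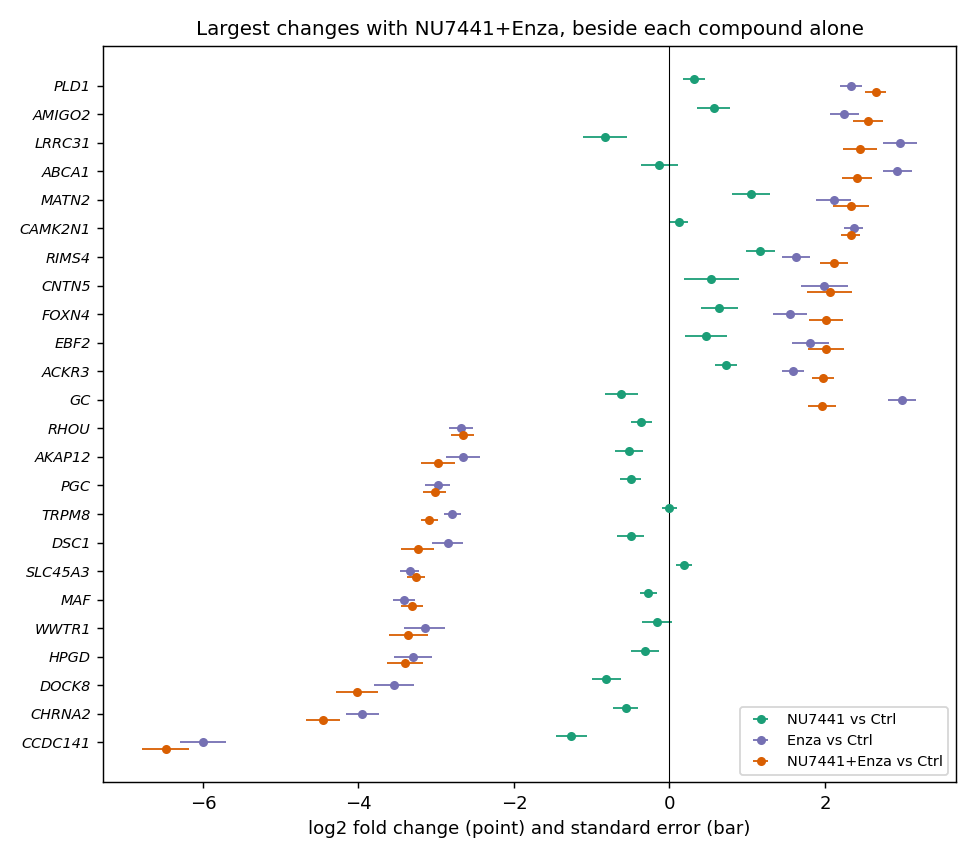
Log2 fold change (points) and standard error (bars) of the 12 largest rises and 12 largest falls with NU7441+Enza among the ranked genes, beside NU7441 and Enza, each against the same 3 Ctrl libraries. The Enza and NU7441+Enza points lay near each other for most genes, and those of NU7441 lay nearer to 0.

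Of 16 measured end-joining genes 2 rose and 1 fell (median −0.13), beside 8.15% and 6.46% of all genes tested. Without the 2 Enza libraries that stood apart 3 rose and 6 fell, beside 16.8% and 16.9%. RIF1, which protects broken ends from resection, fell from 275, 249 and 250 CPM to 194, 195 and 192 CPM (−0.41 ± 0.10, edgeR adjusted p = 0.00478). APLF, a histone-binding repair factor, rose on 64 reads against 8 (2.78 ± 0.48), and NHEJ1, the XLF cofactor of the ligase, lay at 0.56, 0.829 and 0.651 CPM against 0.388, 0.221 and 0.334 CPM (1.09 ± 0.33, edgeR adjusted p = 0.0227). The call of NHEJ1 ended without the second or the third Ctrl library (edgeR adjusted p = 0.147 and 0.0705) and without the second or the third library of the combination (0.139 and 0.0623). Without the third Ctrl library 3 end-joining genes fell in place of 1, and without the second Ctrl library or the first of the combination 2 fell. The Ku genes XRCC5 and XRCC6 lay at −0.43 (edgeR adjusted p = 0.0514) and −0.24 (edgeR adjusted p = 0.355), named after their values were seen.

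In the family of DNA-PK-like kinases and their chaperones 2 of 13 fell, beside 6.46% of all genes tested. They were MTOR and the chaperone gene TTI1 (−0.30 ± 0.09, edgeR adjusted p = 0.0173, and 0.126 without the filter on low counts). Without the 2 Enza libraries 6 fell, beside 16.9%. Of 20 homologous recombination and Fanconi genes 4 fell and 1 rose (median −0.31), beside 6.46% and 8.15%, with 18 of 20 below 0. Without the 2 Enza libraries 14 fell and 1 rose, beside 16.9% and 16.8%. Leaving out the first Ctrl library left 2 falls. BARD1, the partner of BRCA1, was the rise, from 206, 191 and 178 CPM to 287, 275 and 262 CPM (0.52 ± 0.12, edgeR adjusted p = 0.00437). XRCC2, a homologous recombination factor, fell from 109, 102 and 102 CPM to 83.5, 80.5 and 76.8 CPM (−0.38 ± 0.10). RAD54B and FANCB lay at −0.47 ± 0.14 and −0.40 ± 0.12, and both lost their call without the first Ctrl library (edgeR adjusted p = 0.0709 and 0.0797), FANCB also without the third library of the combination (0.0791).

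Cell cycle genes lay below Ctrl by small amounts. Of 43 replication genes 7 fell and none rose (median −0.30), with 39 of 43 below 0, beside 6.46% of all genes tested that fell. The count was 28 without the 2 Enza libraries, beside 16.9%. Leaving out single libraries gave 3 to 9 falls: 3 without the first Ctrl library, 4 without the first or the second library of the combination and 3 without the third. CLSPN, which encodes the checkpoint mediator claspin, fell from 77.7, 72.7 and 74.3 CPM to 45.4, 45.0 and 46.7 CPM (−0.71 ± 0.13, edgeR adjusted p = 0.000199). RFC3, a subunit of the clamp loader, fell from 207, 180.0 and 178 CPM to 128, 127 and 119 CPM (−0.59 ± 0.13). Neither gene had overlapping groups, which was so for 99.6% of all genes called.

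All 41 mitosis genes lay below 0, with a median of −0.37, but 5 fell by the test, beside 6.46% of all genes tested, and 19 without the 2 Enza libraries, beside 16.9%. The count of 5 went to 3 without the first Ctrl library or the first of the combination and to 2 without the second or the third of its libraries. CENPE, a kinesin of the kinetochore, fell from 222, 199 and 191 CPM to 135, 126 and 127 CPM (−0.66 ± 0.16, edgeR adjusted p = 0.00636), and CDC20, an activator of the anaphase-promoting complex, from 192, 189 and 176 CPM to 123, 122 and 123 CPM (−0.60 ± 0.16, edgeR adjusted p = 0.0128). The promoter window of CENPE held no match to TTTGAA, the cell cycle homology element, searched on both strands; 10.3% of promoters of tested genes held one, and 23 of 35 of the mitosis genes.

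Of 21 G1 regulators 3 fell and 2 rose, beside 6.46% and 8.15% of all genes tested. Without the 2 Enza libraries 9 fell and 2 rose, beside 16.9% and 16.8%. CDK6 fell from 10.3, 9.18 and 8.38 CPM to 4.97, 4.46 and 5.72 CPM (−0.88 ± 0.13, edgeR adjusted p = 2.32e-05) and SKP2, which marks the inhibitor p27 for degradation, from 139, 129 and 121 CPM to 88.6, 86.5 and 83.1 CPM (−0.59 ± 0.12). Neither of the 2 rises was kept with 1 of the 6 libraries left out, whichever it was. No replication-dependent histone passed of 10 measured, all of which lay below 0 (median −0.33). Without the 2 Enza libraries 2 histones fell, beside 16.9% of all genes tested. H1-2 lay at −0.42 ± 0.18 (edgeR adjusted p = 0.132).

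The unfolded protein response adjusts the folding capacity of the endoplasmic reticulum through sensors, transcription factors and chaperones. Of 22 measured genes on its list 10 fell and none rose, against 6.46% of genes tested that fell, with a median of −0.32 and 21 of 22 below 0. Leaving out 1 library gave 7 to 10 falls, and 17 fell without the 2 Enza libraries. HSP90B1, the abundant chaperone GRP94, fell from 1697, 1529 and 1587 CPM to 1107, 1092 and 1079 CPM (−0.55 ± 0.11, edgeR adjusted p = 0.00067). MANF, a secreted factor of the same compartment, fell from 151, 147 and 145 CPM to 90.0, 91.2 and 88.1 CPM (−0.72 ± 0.12, edgeR adjusted p = 0.00011). CREB3L4, a membrane-bound transcription factor of the prostate, fell by 0.66 ± 0.12 on the log2 scale and the co-chaperone DNAJB9 by 0.57 ± 0.13. The 3 libraries of the combination lay below all Ctrl libraries in each of these 4 genes, and groups were apart in 99.6% of all genes called.

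Ribosome biogenesis genes also lay low. All 21 measured members lay below 0 (median −0.31), and 6 fell and none rose, beside 6.46% and 8.15% of all genes tested. Without the 2 Enza libraries all 21 fell, beside 16.9%. Nucleolin (NCL) fell from 1061, 1062 and 1156 CPM to 667, 574 and 578 CPM (−0.85 ± 0.18, edgeR adjusted p = 0.00118). NOP58 and NOP2, which modify ribosomal RNA, fell by 0.66 ± 0.15 and 0.62 ± 0.12, and ODC1, the first enzyme of polyamine synthesis, by 0.63 ± 0.16. No translation gene passed of 22 measured, among them EEF1A1 (0.23 ± 0.17, edgeR adjusted p = 0.426) and EEF2 (0.19 ± 0.15, edgeR adjusted p = 0.46). Without the 2 Enza libraries 3 translation genes rose and 2 fell, beside 16.8% and 16.9%.

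Lipid genes split by enzyme. Of 16 fatty acid genes 3 fell and 2 rose (median 0.08), beside 6.46% and 8.15% of all genes tested. Without the 2 Enza libraries 4 fell and 5 rose, beside 16.9% and 16.8%. ELOVL7, an elongase of long-chain fatty acids, fell from 158, 139 and 136 CPM to 43.1, 43.5 and 41.3 CPM (−1.76 ± 0.12, edgeR adjusted p = 3.64e-11). ELOVL5, an elongase of polyunsaturated fatty acids, fell from 559, 517 and 525 CPM to 226, 215 and 203 CPM (−1.31 ± 0.14) and ACSL3, an acyl-CoA synthetase that is also on the androgen-induced list, from 765, 657 and 655 CPM to 261, 261 and 266 CPM (−1.40 ± 0.12). THRSP, a lipogenic regulator, lay at 0.87 ± 0.26 (edgeR adjusted p = 0.0257). Its adjusted p was 0.0541 in DESeq2, 0.168 and 0.0914 without the first and second Ctrl library and 0.0544 and 0.176 without the first and the third library of the combination, and each of these 4 libraries left 1 rise on the list. Of 24 sterol genes 2 rose and 1 fell (median 0.03), beside 8.15% and 6.46%. Without the 2 Enza libraries 3 rose and 3 fell, beside 16.8% and 16.9%. The sterol reductase TM7SF2 rose from 49.8, 53.5 and 52.0 CPM to 121, 109 and 115 CPM (1.15 ± 0.15).

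Of 25 genes of glycolysis and hypoxia 8 fell and 2 rose (median −0.15), beside 6.46% and 8.15% of all genes tested. Without the 2 Enza libraries 12 fell and 2 rose, beside 16.9% and 16.8%. When 1 library was left out 6 to 7 fell. SLC2A3, a glucose transporter, held 133 reads in Ctrl and 1 in NU7441+Enza, a ratio of 150.0 per read sequenced (95% interval 26.4 to 5954, counting error only). HK2, the hexokinase of proliferating cells, fell from 61.1, 64.7 and 68.3 CPM to 38.0, 32.7 and 38.2 CPM (−0.83 ± 0.12, edgeR adjusted p = 7.48e-06), and NDRG1, a stress-response gene that is also androgen-induced, by 0.67 ± 0.12. ENO2, the neuronal enolase, rose from 1.64, 1.92 and 2.14 CPM to 4.68, 3.9 and 4.05 CPM (edgeR adjusted p = 2.09e-05). None of 24 nuclear genes of oxidative phosphorylation passed (median −0.08), among them ATP5F1B (−0.10 ± 0.15, edgeR adjusted p = 0.72). Without the 2 Enza libraries 7 of these genes fell, beside 16.9%.

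**Figure D4:**
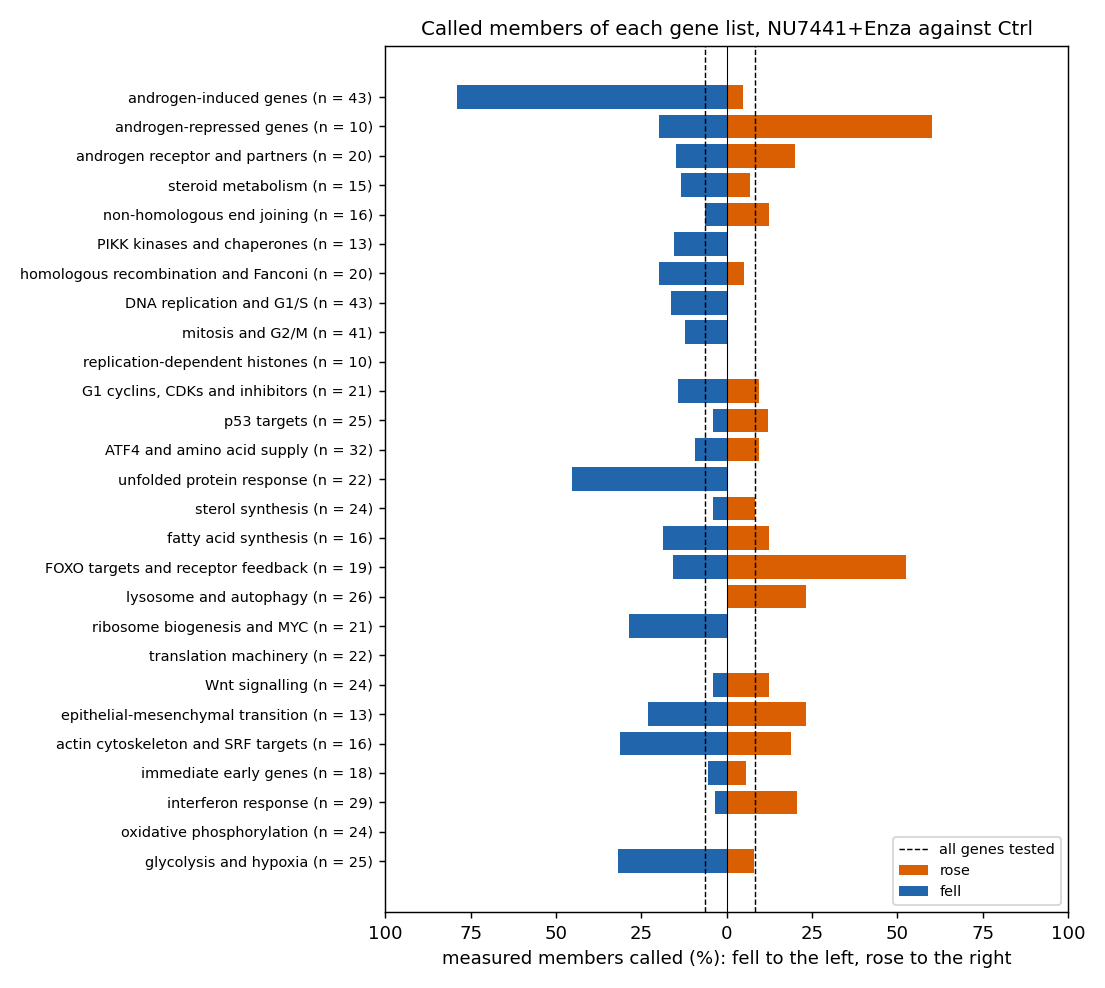
Share of the measured members of each of 27 gene lists that fell (blue, left) or rose (orange, right) in NU7441+Enza against Ctrl. Dashed lines mark 6.46% and 8.15%, the shares of all genes tested. Androgen-induced genes (34 of 43 fell), unfolded protein response genes (10 of 22 fell) and FOXO and receptor feedback genes (10 of 19 rose) had the longest bars among lists of more than 10 genes.

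FOXO factors drive feedback genes when insulin and AKT signalling is low. Of 19 measured genes of this list 10 rose and 3 fell (median 0.32), against 8.15% and 6.46% of genes tested. Leaving out 1 library gave 7 to 9 rises and 3 falls, and 13 rose and 3 fell without the 2 Enza libraries. PIK3IP1, an inhibitor of PI3-kinase, rose from 3.37, 3.37 and 3.18 CPM to 7.06, 6.58 and 7.56 CPM (1.10 ± 0.17, edgeR adjusted p = 2.92e-05), and KLHL24, a ubiquitin ligase adaptor, from 16.5, 16.3 and 15.0 CPM to 36.1, 31.1 and 29.5 CPM (1.02 ± 0.19, edgeR adjusted p = 0.000454). The receptor and its adaptor went the other way: IGF1R fell from 16, 18.7 and 20.4 CPM to 5.87, 6.31 and 7.56 CPM (−1.48 ± 0.20, edgeR adjusted p = 6.59e-06) and IRS1 from 13.6, 15.2 and 15.1 CPM to 7.94, 8.39 and 6.99 CPM (−0.91 ± 0.11). In none of these 4 genes did the groups overlap, as in 99.6% of all genes called.

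Of 25 p53 targets 3 rose and 1 fell (median 0.02), shares near the 8.15% and 6.46% of all genes tested. The counts were 8 and 6 without the 2 Enza libraries, beside 16.8% and 16.9%. TP53INP1, an autophagy and cell death factor, rose from 88.9, 91.8 and 89.0 CPM to 190.0, 171 and 170.0 CPM (0.98 ± 0.14, edgeR adjusted p = 1.37e-05) and SESN1, a sestrin that restrains mTORC1 and is also on the FOXO list, from 29.3, 25.7 and 23.7 CPM to 44.8, 42.5 and 39.5 CPM (0.69 ± 0.13). AEN, a nuclease of apoptosis, fell by 0.55 ± 0.13. CDKN1A, the inhibitor p21, lay at −0.09 (edgeR adjusted p = 0.679), named after its value was seen.

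ATF4 and amino acid genes gave 3 rises and 3 falls of 32 (median 0.00), shares near the 8.15% and 6.46% of all genes tested, and 8 and 4 without the 2 Enza libraries, beside 16.8% and 16.9%. CHAC1, which degrades glutathione, fell from 10.6, 11.5 and 10.7 CPM to 8.04, 7.8 and 5.66 CPM (−0.60 ± 0.15, edgeR adjusted p = 0.0058) and the factor ATF5 from 13.6, 16.2 and 15.2 CPM to 11.1, 10 and 8.61 CPM (−0.60 ± 0.12). PHGDH, the first enzyme of serine synthesis, lay at 0.55 ± 0.16 (edgeR adjusted p = 0.0168), and its adjusted p lay between 0.0539 and 0.126 with 1 of the 6 libraries left out. Of the 3 rises 1 was left without the third Ctrl library or the third of the combination, and none without any of the other 4. Of 26 lysosome and autophagy genes 6 rose and none fell (median 0.14), beside 8.15% and 6.46%. Without the 2 Enza libraries 11 rose and 1 fell, beside 16.8% and 16.9%. No lysosome rise was left without the first Ctrl library and 2 without any other of the 6, and ULK1 (0.60 ± 0.14) and MAP1LC3B (0.53 ± 0.12), both of autophagosome formation, lay at an edgeR adjusted p of 0.0696 and 0.0724 without it.

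Among signalling and adhesion genes single members moved far. WNT5A, a ligand of the non-canonical Wnt pathway, rose from 6.35, 7.0 and 6.52 CPM to 17.4, 20 and 18.2 CPM (1.48 ± 0.13, edgeR adjusted p = 2.85e-09), and the receptor FZD5 fell from 48.0, 47.5 and 49.6 CPM to 27.7, 30.3 and 28.9 CPM (−0.74 ± 0.10). In all, 3 of 24 Wnt genes rose and 1 fell, beside 8.15% and 6.46% of all genes tested, and 5 rose and 6 fell without the 2 Enza libraries, beside 16.8% and 16.9%. Of 13 genes of epithelial-mesenchymal transition 3 rose and 3 fell, beside 8.15% and 6.46%. Without these 2 libraries 5 rose and 4 fell, beside 16.8% and 16.9%. SNAI2, a repressor of epithelial genes, fell to 15 reads from 243 (−4.15 ± 0.37), TGFB2, a growth factor ligand, lay at −2.38 ± 0.25, and ITGB4, the integrin of hemidesmosomes, rose from 1.13, 0.946 and 1.31 CPM to 3.02, 3.8 and 3.2 CPM (1.55 ± 0.20).

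Of 16 actin genes 5 fell and 3 rose, beside 6.46% and 8.15% of all genes tested. Without the 2 Enza libraries 6 fell and 4 rose, beside 16.9% and 16.8%. Without the first or the third library of the combination 3 fell, and leaving out any 1 library left 1 rise. The kinase MYLK rose from 20.2, 19.0 and 21.6 CPM to 49.6, 56.3 and 53.6 CPM (1.39 ± 0.16, edgeR adjusted p = 6.51e-07), tropomyosin TPM1 fell from 148, 134 and 131 CPM to 72.9, 64.2 and 72.8 CPM (−0.98 ± 0.11), and ACTA2, the smooth muscle actin, from 4.24, 4.04 and 4.23 CPM to 2.14, 2.19 and 2.21 CPM (−0.93 ± 0.15). Without the 2 Enza libraries 5 of 18 immediate early genes rose and 2 fell, beside 16.8% and 16.9%. With all libraries 1 rose and 1 fell, shares near the 8.15% and 6.46% of all genes tested. They were the phosphatases of MAP kinases DUSP5, from 0.895, 0.82 and 0.752 CPM to 2.09, 1.52 and 1.61 CPM (1.09 ± 0.23), and DUSP4, from 33.4, 34.2 and 34.6 CPM to 11.1, 11.6 and 11.6 CPM (−1.58 ± 0.13, edgeR adjusted p = 1.9e-09).

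Of 29 interferon genes 6 rose and 1 fell (median 0.28), beside 8.15% and 6.46% of all genes tested, and 12 and 2 without the 2 Enza libraries, beside 16.8% and 16.9%. In this list 3 rose with each of the 6 libraries left out in turn. The factor IRF1 rose from 1.97, 2.05 and 2.28 CPM to 4.73, 5.37 and 5.12 CPM (1.27 ± 0.15, edgeR adjusted p = 4.97e-07) and the nuclease ISG20 from 2.36, 3.03 and 2.7 CPM to 4.58, 4.36 and 4.64 CPM (0.75 ± 0.16). GBP1, a guanylate-binding GTPase, fell from 4.29, 3.28 and 3.23 CPM to 1.34, 1.34 and 1.22 CPM (−1.47 ± 0.21, edgeR adjusted p = 1.25e-05).

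The labelled cell type was checked on marker genes. Luminal prostate markers, 11 measured, summed to 3017 to 3194 CPM in Ctrl and 3015 to 3060 CPM in NU7441+Enza. Of these markers 4 fell and 2 rose, beside 6.46% and 8.15% of all genes tested. Without the 2 Enza libraries 6 fell and 4 rose, beside 16.9% and 16.8%. The cytokeratin KRT19 fell by 1.28 ± 0.20 and the secreted glycoprotein AZGP1 by 0.99 ± 0.09, and the prostatic acid phosphatase ACP3 rose from 9.66, 9.81 and 8.19 CPM to 21.7, 22.3 and 21.3 CPM (1.24 ± 0.11). Basal markers, 3 of 7 measured, summed to 86.4 to 91.5 and 89.6 to 92.1 CPM, where the single fall, of KRT14 on 4 reads against 20, ended with any 1 of the 6 libraries left out, and with KRT17 at 0 reads in all 6 and KRT5, KRT15 and TP63 too low to be tested. Neuroendocrine markers, 5 of 11 measured, summed to 5.16 to 5.77 and 7.3 to 7.94 CPM, without overlap, where ENO2 was the single call and INSM1 and CHGB were too low to be tested. Stromal, immune and endothelial markers, 5 of 15 measured, summed to 7.43 to 8.96 and 7.75 to 8.9 CPM, with COL3A1 higher (1.75 ± 0.29) and VWF lower (−0.91 ± 0.20) and PTPRC and CD3E too low to be tested. The part of these markers in the changes was not tested, and in bulk RNA fewer cells of a type and less RNA per cell cannot be told apart.

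Set against NU7441 alone, which tests what enzalutamide added to the inhibitor, the combination differed in 1389 genes (6.08%), 629 higher (2.75%) and 760 lower (3.32%), by edgeR's adjusted p. Without the 2 Enza libraries that stood apart 3632 differed. Androgen-induced genes made 35 lower and 1 higher of 43, and 7 of 10 androgen-repressed genes were higher and none lower. KLK3 stood at 2294, 2441 and 2180.0 CPM with NU7441 alone and was lower in the combination by 1.94 ± 0.12 on the log2 scale (edgeR adjusted p = 4.1e-12). SLC45A3 lay at −3.45 ± 0.12, CCDC141 at −5.21 ± 0.31, PLD1 at 2.32 ± 0.14 and LRRC31 at 3.27 ± 0.24 against NU7441, each called under all 14 alternatives. None of the 43 replication and 41 mitosis genes passed the test between the combination and NU7441. All 41 mitosis genes lay higher in the combination (median 0.24, against 0.01 over all genes), and replication genes lay at a median of 0.03. The second NU7441 library lay low in mitosis genes named above. With NU7441 CENPE stood at 135, 77.0 and 143 CPM and CDC20 at 125, 67.5 and 119 CPM. In the combination they stood at 135, 126 and 127 CPM and at 123, 122 and 123 CPM. In both genes the other NU7441 libraries lay near the combination. Without the 2 Enza libraries 4 mitosis genes, CDC25C (0.38), NEK2 (0.51), KIF2C (0.45) and CENPA (0.53), and 1 replication gene, TK1 (0.32), were called higher, beside 7.36% of all genes, all named after their values were seen. IGF1R (−1.80 ± 0.20) and HSP90B1 (−0.51 ± 0.11) were lower in the combination than with NU7441.

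Set against Enza alone, which tests what NU7441 added to the antiandrogen, few genes differed: 87 of 22860 (0.381%), 51 higher (0.223%) and 36 lower (0.157%). In each of the 87 genes called the 2 groups did not overlap, beside 4553 of all genes tested (19.9%). The count of genes called was unstable. It was 0 without the first library of the combination (2451 genes at an unadjusted p under 0.05), 12 without the second or the third of its libraries, 39, 653 and 1173 without the first, the second and the third Enza library and 598 without the 2 Enza libraries that stood apart. A fit of these 6 libraries alone also gave 0 calls (edgeR; 1753 genes at an unadjusted p under 0.05), and DESeq2 on all libraries gave 301. None of the 43 androgen-induced genes passed the test (median 0.07, against −0.01 over all genes). Without the 2 Enza libraries that stood apart 5 were higher and 1 lower, beside 1.83% and 0.762% of all genes. Among them, named after their values were seen, TMPRSS2 (0.38), STEAP2 (0.33) and HOMER2 (0.22) were higher and KLK2 (−0.28) lower. KLK3 stood at 694, 643 and 579 CPM in Enza and lay at −0.09 in the combination against it (edgeR adjusted p = 0.764).

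HTRA1, a secreted serine protease, was higher with both compounds, at 9.5, 8.42 and 9.09 CPM against 4.75, 5.16 and 4.87 CPM in Enza (0.87 ± 0.14, edgeR adjusted p = 0.00658). ATP8A1, a lipid flippase, stood at 19.3, 19.9 and 18.7 CPM against 9.71, 10.4 and 11.6 CPM (0.87 ± 0.15, edgeR adjusted p = 0.00714). TP53INP1 stood at 190.0, 171 and 170.0 CPM against 76.8, 111 and 116 CPM (0.81 ± 0.14, edgeR adjusted p = 0.0108). In these genes the libraries of NU7441 alone lay above those of Ctrl as well, at 6.74, 9.02 and 6.54 CPM for HTRA1. The combination did not overlap Enza, which was a condition of naming HTRA1 and ATP8A1. KLHL24 (0.90 ± 0.19) and the kinase subunit CAMK2B (0.90 ± 0.20) were also higher, with adjusted p of 0.037 and 0.0427, and KLHL24 lay at 0.0737 without the 2 Enza libraries.

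Lower than with Enza were ACTA2, at 2.14, 2.19 and 2.21 CPM against 4.04, 4.36 and 4.22 CPM (−0.95 ± 0.15, edgeR adjusted p = 0.00602), and UGT2B11, at 2.12, 1.47 and 2.12 CPM against 3.6, 4.08 and 3.39 CPM (−0.95 ± 0.17). NU7441 alone gave the lowest levels of both, 1.11, 0.928 and 1.22 CPM for ACTA2. GC stood at 8.01, 9.49 and 8.75 CPM against 14.4, 20.2 and 18.9 CPM (−1.03 ± 0.16, edgeR adjusted p = 0.00602) and WNT5A at 17.4, 20 and 18.2 CPM against 26.8, 25.3 and 28.8 CPM (−0.54 ± 0.12, edgeR adjusted p = 0.0463). Both genes were thus high in Enza, lower in the combination and lowest in Ctrl or NU7441. Of 32 ATF4 genes 5 were lower than with Enza and none higher, beside 0.157% and 0.223% of all genes tested. The 5 were CHAC1 (−0.84 ± 0.15), ATF5 (−0.55 ± 0.12) and, named after their values were seen, TRIB3 (−0.64), SESN2 (−0.50) and STC2 (−0.49). Without the 2 Enza libraries that stood apart 7 ATF4 genes were lower and none higher, beside 0.762% and 1.83%. TLNRD1 (−0.92 ± 0.20) and GBP1 (−0.97 ± 0.22), the guanylate-binding GTPase, were lower too, TLNRD1 with an edgeR adjusted p of 0.121 without the 2 Enza libraries that stood apart. All 13 genes called here that the rule names, for this comparison or for that with Ctrl, kept their direction under all 14 alternatives. Each lost its call without the first library of the combination and in the fit of 6 libraries.

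**Figure D5:**
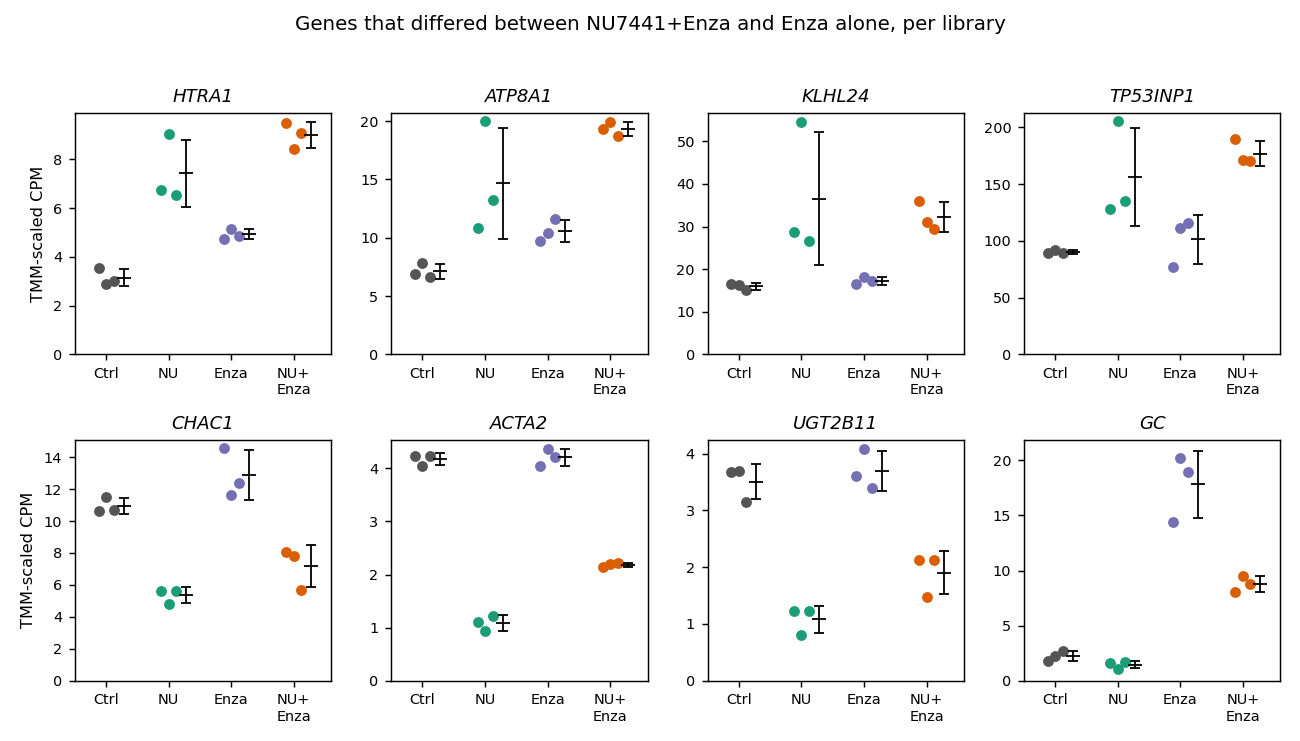
TMM-scaled CPM of 8 genes in each library (points), with mean and SD of 3 libraries (bars), for Ctrl, NU7441, Enza and NU7441+Enza. HTRA1, ATP8A1, KLHL24 and TP53INP1 were higher in NU7441+Enza than in Enza, and CHAC1, ACTA2, UGT2B11 and GC were lower. In each gene the 2 groups did not overlap, which was a condition of choosing all but TP53INP1 and CHAC1.

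Whether the compounds departed from adding up on the log2 scale was tested by their interaction. No gene was called of 22860 (0%) by edgeR, with 1548 genes at an unadjusted p under 0.05 and a smallest adjusted p of 0.692, and none by DESeq2. Without the filter on low counts 23 were called, and 3 without the 2 Enza libraries that stood apart. The effects of each compound and of both were all measured against the same 3 Ctrl libraries, so they are given side by side only. For the 43 androgen-induced genes the median was 0.12 with NU7441, −1.30 with Enza and −1.30 with both. For 41 mitosis genes it was −0.61, −0.18 and −0.37, for 21 ribosome biogenesis genes −0.26, −0.16 and −0.31, for 22 unfolded protein response genes −0.09, −0.16 and −0.32, and for 19 FOXO and feedback genes 0.29, 0.12 and 0.32. The NU7441 median of the mitosis genes takes in the second NU7441 library, which lay low in CENPE and CDC20. ABCA1 lay at −0.13 with NU7441, 2.93 with Enza and 2.41 with both, and ACTA2 at −1.94, 0.01 and −0.93.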

How the data were processed

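RNA from 24 C4-2 libraries in 8 groups of 3 was measured by stranded total RNA sequencing with ribosomal RNA removal. The deposited values were raw counts per feature for 63677 features (52526 with a gene name). The submitters' processing notes list STAR 2.5.2a, featureCounts 1.5.0-p3, DESeq2 1.14.1 and hg19; annotation release and strand setting: not given in the sources used here, so overlapping genes on opposite strands are uncertain. Groups came from the sample labels.

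From the counts, edgeR 4.0.16 (R 4.3.3, limma 3.58.1) fitted all 24 libraries with 1 coefficient per group, after filterByExpr (22860 genes) and TMM scaling. Contrasts were tested by the robust quasi-likelihood F-test with Benjamini-Hochberg adjustment at 0.05, two-sided, and the SE is the log2 fold change divided by the root of F. Reads of rare genes were compared per read sequenced with exact 95% binomial intervals, which cover counting error only. The fit was tested on simulated data for NU7441+Enza against Ctrl. All groups had the Ctrl means except for the changed genes, and no library was made to stand apart. The changed genes were drawn from those with an average log2 CPM of at least 1, so recovery at lower levels was not tested. Of genes changed 1.5-fold 55.2% were recovered, of those changed 2-fold 95.5%, and 7 of 20842 unchanged genes were called.

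Named genes were the 12 largest called changes in each direction, up to 4 called genes per list, and 4 per direction in the comparisons with the single compounds. Others are marked where named. The largest changes were taken among protein-coding genes with an approved symbol, an average log2 CPM of at least 1 and groups that did not overlap in the comparison concerned. Some genes that the rule names are not reported here. The members, the 27 gene lists and the 4 marker lists were chosen with earlier results of these data known. Alternatives were DESeq2 1.42.0, median-of-ratios size factors, no filter or a stricter filter (1 CPM in 3 libraries), only the compared groups, a replicate block, small and mitochondrial RNA removed, 2 libraries left out together, and each library left out in turn.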

Additional observations from a re-analysis of the deposited data

How the results depend on the processing

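For NU7441+Enza against Ctrl the 3341 calls became 7890 (3842 rises, 4048 falls) in a fit of only the groups compared, 7783 without Enza 1 and CC-115+Enza 1, and 2155 to 2809 with 1 of the 6 libraries left out, lowest without the first Ctrl library; the stricter filter gave 3788 (1869 rises, 1919 falls) and no filter 3117. The share of rises, 55.8% in the main fit, was 44.1% in DESeq2, 47.5% with median-of-ratios size factors and 49.3% with the stricter filter. It was 56.2% with a replicate block, 55.3% with small and mitochondrial RNA removed and 50.8% with no filter. For NU7441+Enza against Enza the 87 calls became 301 in DESeq2, 619 without a filter, 598 without Enza 1 and CC-115+Enza 1, 205 with the stricter filter, and 0 to 1173 with 1 library left out; only the groups compared gave 0 by edgeR, with 1753 genes at an unadjusted p under 0.05. Against NU7441 the 1389 calls became 2759 with only the groups compared, 3632 without Enza 1 and CC-115+Enza 1, and 986 to 1222 with 1 library left out. The interaction gave 23 calls without a filter and 3 without Enza 1 and CC-115+Enza 1, and 0 otherwise. No named gene changed direction against Ctrl in any of the 14 alternatives. The cause of these shifts was not tested.

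With a replicate block the calls were 3019 against Ctrl, 43 against Enza and 1283 against NU7441. Deviations from the group mean over tested genes correlated at 0.103, −0.005 and 0.028 between same-numbered Ctrl and NU7441+Enza libraries. Between libraries of different number they correlated at −0.111 to 0.08. Not every library correlated best with its own number. With 3 libraries per group these values do not settle whether the numbers pair the libraries.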
